A study of Mus musculus with 9 samples.

Results

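The 9 genes described here encode enzymes and receptors of the lipoxygenase routes, which turn arachidonic acid into leukotrienes and lipoxins. They were chosen by symbol, as pathway genes, and not by a rule on their values, though earlier results of these data were known. All 9 were among the 16367 genes of the table for sorted retinal cells, and 8 were among the 17035 genes of the table for primary cultures, where Fpr2 is not listed. The members are Pla2g4a, Alox5, Alox5ap, Lta4h, Ltc4s, Alox15, Ephx2, Fpr1 and Fpr2.

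In this pathway cytosolic phospholipase A2 frees arachidonic acid from membranes, and 5-lipoxygenase, helped by its activating protein, oxidises it to leukotriene A4. That intermediate is turned into leukotriene B4, a neutrophil attractant, or into the cysteinyl leukotrienes. When 5-lipoxygenase acts together with 15-lipoxygenase, the products include the lipoxins, which are known for damping inflammation. In the retina lipoxins have been described as products of glia, and leukotriene enzymes are known as genes of myeloid cells, which include microglia.

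Expression was measured by RNA sequencing in mouse cells labelled as Müller glia, the radial glia that span the retina. In the ocular hypertension (OHT) group both eyes of wild-type mice had received 1.2 µL of silicone oil in the anterior chamber, and sham mice had a corneal cut without oil. Retinas were pooled by 4 and the cells captured on magnetic beads through the glutamate transporter GLAST, giving 3 libraries in each group. The third group held 3 untreated cultures grown from wild-type C57BL/6J pups 8 to 10 days old. All 3 groups are labelled wild type. Astrocytes carry GLAST as well. The strain and age of the sham and OHT mice and the time after injection were not given in the sources used here. Nothing says that the cultures, passaged in serum medium, came from separate preparations, so p-values measure only the spread between the sorted pools and culture spread may be technical.

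The libraries held 37.8 to 44.5 M reads in sham, 47.1 to 53.6 M in OHT and 66.3 to 76.7 M in culture (M, 1e6 reads). Values are normalised counts, which are reads divided by 1 factor per library, or ppm, which are reads per 1e6 reads of the library. Marker genes showed mixed cells. A list of 13 Müller glia genes took 0.401% to 0.961% of reads in sham and 0.212% to 0.454% in OHT, with all 13 detected. A list of 12 microglia and macrophage genes took more, 3.06% to 4.85% in sham and 4.67% to 5.50% in OHT. In culture the Müller glia list was at 0.0963% to 0.116% and the microglia and macrophage list at 0.0106% to 0.0162%, with every gene of both lists detected in each culture. The Müller glia sum in culture was mostly Prdx6 (703 ppm) and Dkk3 (215 ppm). Markers that define these cells were far lower there than in sham, with Rlbp1 at 2.24 and 1192 ppm, Aqp4 at 2.57 and 142 ppm, and Rax at 0.0762 and 133 ppm. A list of 8 mural cell and fibroblast genes was at 0.588% to 0.831% in culture, against 0.0116% to 0.0369% in sham and at most 0.00532% in OHT. The culture sum was mostly Col1a1 (5717 ppm) and Col1a2 (1414 ppm). Rgs5, Kcnj8 and Pdgfra had lower means in culture than in sham, at 3.04 and 172, 0.0438 and 3.63, and 21.2 and 79.1 ppm. A list of 14 rod genes was at 0.299% to 2.78% in sham and 0.104% to 0.382% in OHT, and 6 astrocyte genes were at 0.00443% to 0.119% and 0.00282% to 0.0106%. In such bulk libraries fewer cells of a type and less RNA per cell cannot be told apart.

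The widest contrast in the members was between sorted cells and cultures, and the sequence before the start of 4 genes on both sides of it is shown here. Alox5 and Ltc4s were lower in culture, and Pla2g4a and Lta4h were higher. Each run is the 250 bases before the annotated start, 5′ to 3′ on the gene's strand, from RefSeq on GRCm38.p6, which is an older build than the authors' mm39. Capitals mark GAGGAA or its reverse complement TTCCTC, 1 form of the site bound by the myeloid factor PU.1. This motif was picked after the levels were known, and the shorter core GGAA was not marked.
Alox5, chr6:116461179-116461428, minus strand: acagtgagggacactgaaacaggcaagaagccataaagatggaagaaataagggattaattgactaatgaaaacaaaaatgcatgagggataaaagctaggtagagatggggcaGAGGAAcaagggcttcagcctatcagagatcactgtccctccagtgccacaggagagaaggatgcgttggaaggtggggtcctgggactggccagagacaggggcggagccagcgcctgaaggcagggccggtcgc
Ltc4s, chr11:50238533-50238782, minus strand: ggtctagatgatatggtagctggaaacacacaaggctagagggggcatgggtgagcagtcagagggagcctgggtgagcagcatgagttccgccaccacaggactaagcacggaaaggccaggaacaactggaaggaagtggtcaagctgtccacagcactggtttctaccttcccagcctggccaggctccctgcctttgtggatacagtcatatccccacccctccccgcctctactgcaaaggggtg
Pla2g4a, chr1:149961291-149961540, minus strand: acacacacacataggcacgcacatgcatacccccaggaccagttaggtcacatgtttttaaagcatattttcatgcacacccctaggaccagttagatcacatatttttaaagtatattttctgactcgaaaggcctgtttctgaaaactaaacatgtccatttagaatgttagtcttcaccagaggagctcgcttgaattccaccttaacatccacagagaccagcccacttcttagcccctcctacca
Lta4h, chr10:93453146-93453395, plus strand: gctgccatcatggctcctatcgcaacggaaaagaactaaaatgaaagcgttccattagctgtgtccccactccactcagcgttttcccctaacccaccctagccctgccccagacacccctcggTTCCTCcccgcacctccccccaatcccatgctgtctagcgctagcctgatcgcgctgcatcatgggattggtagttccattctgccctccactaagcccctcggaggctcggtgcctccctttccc
The window of Alox5 held 1 match, starting 136 bases before the start, and that of Lta4h held 1, as the reverse complement, starting 126 bases before it. Neither Ltc4s nor Pla2g4a held this form, though both windows hold the shorter letters GGAA or their reverse complement TTCC. The first of 2 windows of Pla2g4a is shown, and the other held no match either. Windows were found for 6 of the 9 members, of which 3 had a match (Alox5, Lta4h and Fpr2). The letters occurred in 23.3% of all 32851 windows of this length.

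The central comparison asked whether transcripts of the pathway differ in sorted cells under raised eye pressure. The highest estimates were those of Ltc4s and Fpr1, and none of the 9 members passed the test (limma on log2(normalised count + 1), Benjamini-Hochberg adjusted over 14403 genes, threshold 0.05). The background was 0% of genes called. At an unadjusted p under 0.05 limma called 0 of 9 members, where 11.7% of all genes tested were called. On recovered reads edgeR called 0 of 9 members and 0% of all genes, while DESeq2 called 0 of 9 members and 1.74% of all genes. The estimates were positive for 5 members and negative for 4, with a median of 0.059, beside a median of -0.12 over all genes tested. All 9 members passed the filter on low values, a mean of at least 10.

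**Figure D1:**
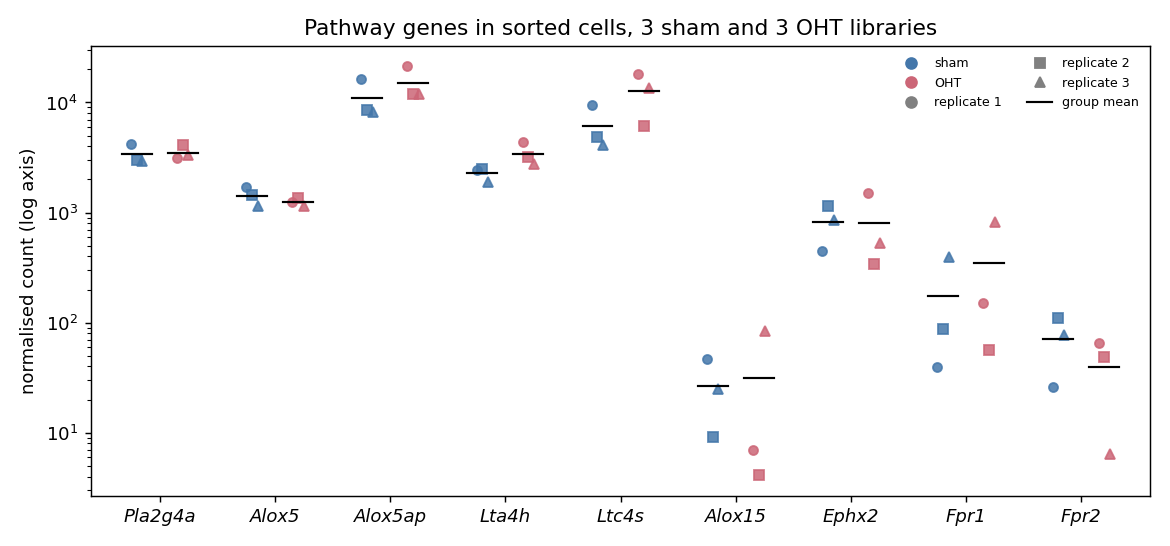
Normalised counts (log axis) of the 9 pathway genes in the 3 sham (blue) and 3 OHT (red) libraries. Symbols stand for replicates and bars for group means. Lta4h is the gene whose groups do not overlap, with sham at 1885 to 2490 and OHT at 2785 to 4337.

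Pla2g4a, the phospholipase that starts the pathway, was at 4230, 3019 and 2929 normalised counts in the sham libraries and at 3125, 4096 and 3305 in the OHT libraries. The ranges lay on top of each other. The log2 difference of OHT minus sham was 0.059 (SE 0.33, limma adjusted p 0.947), with a 95% interval from -0.67 to 0.79. This interval does not show equal levels, but its ends are the narrowest of the 9 members.

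Alox5, the 5-lipoxygenase itself, was at 1696, 1448 and 1139 in sham and at 1252, 1354 and 1152 in OHT. All 3 OHT libraries lay inside the sham range in normalised counts. In ppm OHT replicate 1, at 19.0, lay below the sham range of 26.8 to 43.4. The mean was 1428 ± 279 in sham and 1253 ± 101 in OHT (SD, n = 3 each), a log2 difference of -0.17 with a 95% interval from -1.02 to 0.67 (limma adjusted p 0.860).

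Alox5ap, the membrane protein that presents arachidonic acid to 5-lipoxygenase, was at 16368, 8465 and 8267 in sham. In OHT it was at 21269, 11963 and 11828. Replicate 1 was the highest library of each group, and the ranges overlapped through sham replicate 1 alone. The log2 difference was 0.46 with a 95% interval from -0.38 to 1.31 (limma adjusted p 0.615). Adding the mean of the microglia and macrophage list as a covariate turned it to -0.22 (limma adjusted p 1.00). Within each library there were 5.85 to 9.65 reads of Alox5ap per read of Alox5 in sham and 8.83 to 17.0 in OHT.

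Lta4h encodes the hydrolase that makes leukotriene B4. Its sham libraries held 2447, 2490 and 1885 normalised counts and its OHT libraries 4337, 3194 and 2785. Every OHT library was above every sham library, which was true of 9.26% of all genes tested. Lta4h was the 1 member of 9 whose groups did not overlap in either direction, where 18.4% of all genes did not. The log2 difference was 0.58 with a 95% interval from -0.18 to 1.35 (SE 0.35, limma adjusted p 0.517), and with the microglia and macrophage covariate it was 0.28.

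Ltc4s makes leukotriene C4, the parent of the cysteinyl leukotrienes, and had the smallest p of the members. It was at 9536, 4809 and 4145 in sham and at 18291, 6153 and 13401 in OHT. OHT replicates 1 and 3 lay above all sham libraries, while OHT replicate 2 lay below sham replicate 1. The means were 6164 ± 2940 and 12615 ± 6107 (SD, n = 3 each), and the log2 difference was 1.00 with a 95% interval from -0.0071 to 1.999 (SE 0.46, limma adjusted p 0.431, unadjusted p 0.0514). With the microglia and macrophage covariate the difference was 0.36 (limma adjusted p 1.00). The normalised counts depend on 1 factor per library, which was 1.38 normalised counts per read in OHT replicate 1 and 0.801 to 1.03 in the other sorted libraries. In ppm the OHT mean was 1.67-fold the sham mean for Ltc4s, 1.25-fold for Lta4h, again without overlap, and 1.10-fold for Alox5ap. The OHT mean in ppm was also higher for Fpr1 (2.03-fold) and Alox15 (1.21-fold), with overlap. The sham mean was the higher one for Alox5 (1.33-fold), Pla2g4a (1.11-fold), Ephx2 (1.36-fold) and Fpr2 (2.35-fold), with overlap.

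**Figure D2:**
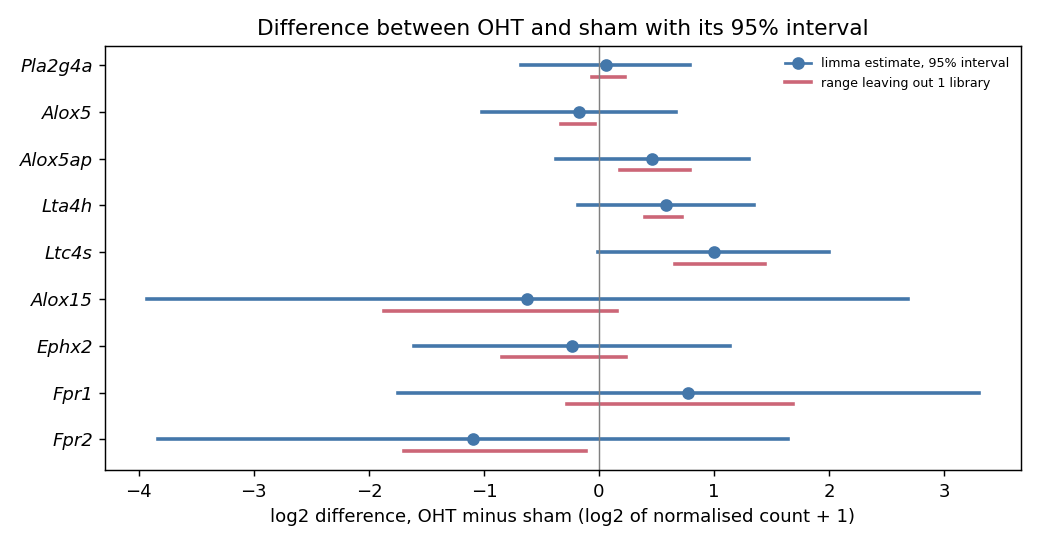
Log2 difference of OHT minus sham for each gene (points) with its 95% interval from limma (blue lines) and the range of estimates when 1 library at a time was left out (red lines). The interval of Ltc4s, from -0.0071 to 1.999, has the highest lower end, and all 9 intervals include 0.

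Alox15, the mouse 12/15-lipoxygenase, was the lowest member of the sorted cells per exon length, in both groups. It had 45, 10 and 26 reads in the sham libraries and 5, 5 and 105 in the OHT libraries. In normalised counts that was 46.5, 9.22 and 24.9 in sham and 6.91, 4.12 and 84.1 in OHT. OHT replicate 3 was above every sham library and the other 2 OHT libraries were below all of them. The means were 26.9 ± 18.7 and 31.7 ± 45.4 (SD, n = 3 each), while on the log2 scale the difference was of the other sign. It was -0.62 with a 95% interval from -3.93 to 2.68 (limma adjusted p 0.872), and it was -1.87 without OHT replicate 3.

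Ephx2, the soluble epoxide hydrolase, acts on epoxides made from arachidonic acid by the neighbouring cytochrome P450 route. It was at 449, 1151 and 864 in sham and at 1513, 341 and 534 in OHT. OHT held both the highest and the lowest library. The log2 difference was -0.23 with a 95% interval from -1.61 to 1.14 (limma adjusted p 0.886). It was 0.23 without OHT replicate 2 and -0.84 without OHT replicate 1.

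Both receptors were uneven between libraries. Fpr1, the formyl peptide receptor of phagocytes, was at 39.3, 87.6 and 397 in sham and at 151, 56.0 and 828 in OHT. Replicate 3 was highest in both groups, and the range was 10.1-fold in sham and 14.8-fold in OHT. The log2 difference was 0.78 with a 95% interval from -1.75 to 3.30 (limma adjusted p 0.781). It was -0.27 without OHT replicate 3 and 1.43 after quantile normalization. With the microglia and macrophage covariate it was 2.37 (limma adjusted p 0.915), and with the rod covariate 3.33 (limma adjusted p 1.00, unadjusted p 0.0461). Fpr2, which binds lipoxin A4 and annexin A1, was at 25.8, 111 and 77.5 in sham and at 64.9, 48.6 and 6.41 in OHT. Its lowest library was OHT replicate 3, the library with the most Fpr1, so that there were 1033 reads of Fpr1 and 8 of Fpr2 in it. The log2 difference of Fpr2 was -1.09 with a 95% interval from -3.83 to 1.65 (limma adjusted p 0.716), and it was -0.11 without OHT replicate 3. Fpr genes lie in a family of similar copies, and the handling of reads shared between copies was not given in the sources used here. Both levels are therefore uncertain.

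A list of 8 monocyte and border macrophage genes was also highest in OHT replicate 3, at 0.0979% of reads, against 0.0427% to 0.0572% in sham and 0.0645% and 0.0292% in the other OHT libraries. Of 10 neutrophil genes 5 were listed in the sorted table. They summed to 0.0161% to 0.0269% of reads in sham and 0.0170% to 0.0204% in OHT, nearly all of it Csf3r (mean 203 ppm in sham and 173 ppm in OHT). The other 4 were low. S100a8 was at 0 to 0.0675 ppm in sham and 0.189 to 0.806 ppm in OHT, Mmp8 was at 0 to 1.60 and 3.69 to 17.4 ppm, Ltf was at 0 in 4 of 6 libraries and Cxcr2 in 5. Of 5 eosinophil genes 3 were listed, summing to 0.00121% to 0.00225% in sham and 0.000241% to 0.00194% in OHT. Siglecf made up most of that sum (mean 17.4 ppm in sham and 11.4 ppm in OHT), and Prg2 was at 0 in 2 of 3 libraries of each group. The part of these cells in the levels of Fpr1, Fpr2 and Alox15 was not tested.

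The order of the members in sorted cells was read per exon length, as ppm per kb of merged exons of each gene (GENCODE M21). In sham Ltc4s (237 ± 120 ppm per kb) and Alox5ap (205 ± 92.2) stood at the top and overlapped each other (SD, n = 3). Lta4h (28.0 ± 5.31) and Pla2g4a (27.7 ± 6.84) followed and did not differ beyond their spread. Alox5 was at 12.6 ± 2.97 ppm per kb, overlapping Ephx2 at 8.20 ± 3.58. Fpr1 (3.16 ± 3.40) overlapped Ephx2 above it and Fpr2 (1.36 ± 0.831) below it, and Alox15 was last at 0.278 ± 0.201. In OHT Ltc4s (395 ± 167 ppm per kb) and Alox5ap (225 ± 20.5) again came first and Alox15 (0.336 ± 0.510) last. There Lta4h (34.8 ± 2.06) lay above Pla2g4a (24.9 ± 8.12) without overlap, and Alox5 (9.48 ± 2.37), Fpr1 (6.41 ± 8.79) and Ephx2 (6.02 ± 3.09) overlapped in turn. Fpr2 (0.581 ± 0.392) overlapped Alox15.

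The cultures were set beside the sorted cells to see which pathway genes the cultured cells carry. Their table was normalised separately, so levels are in ppm and no test was made. Of the 8 members listed in culture, 4 lay below all 6 sorted libraries (Alox5, Alox5ap, Ltc4s and Fpr1), 2 lay above them (Pla2g4a and Lta4h) and 2 overlapped them (Alox15 and Ephx2). Of the 15438 genes that both tables list, 16.5% lay below all sorted libraries and 32.5% above. The culture mean was below the sorted mean by 100-fold or more for 3 of 8 members (Alox5ap, Ltc4s and, from 7 reads, Fpr1), against 4.2% of genes.

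**Figure D3:**
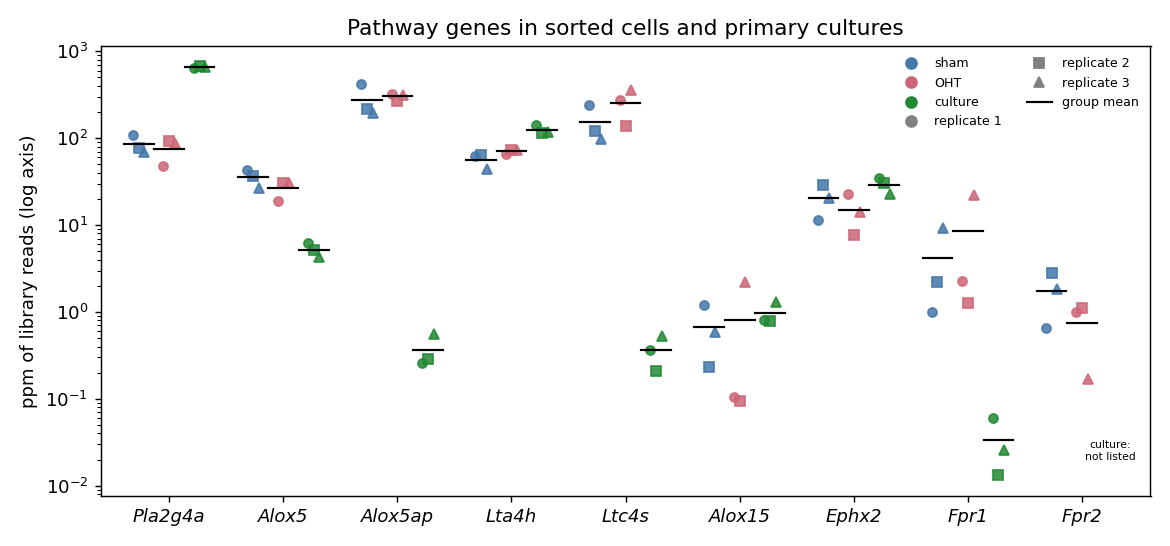
Level in ppm of library reads (log axis) of the 9 genes in sham (blue), OHT (red) and culture (green) libraries, with symbols for replicates and bars for group means. Alox5ap and Ltc4s are at 0.560 ppm or less in culture, while Pla2g4a reaches 641 to 671 ppm, and Fpr2 is not listed there.

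Pla2g4a was the most abundant member in culture, at 641, 671 and 656 ppm. It was at 47.5 to 108 ppm in the sorted libraries, so that the culture mean was 8.17-fold higher. Lta4h was at 143, 115 and 117 ppm in culture and at 44.3 to 73.7 ppm in sorted cells, a 1.96-fold higher mean. Transcripts for the start of the pathway and for the leukotriene B4 step were thus both higher in culture than in every sorted library. Protein levels were not measured.

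Alox5ap went the other way. The cultures held 17, 22 and 43 reads of it, or 0.256, 0.291 and 0.560 ppm, where sorted libraries had 194 to 419 ppm. The sorted mean was 784-fold higher. Ltc4s had 24, 16 and 41 reads in culture, or 0.362, 0.211 and 0.534 ppm, and 97.4 to 355 ppm in sorted cells, 558-fold higher in the mean. Fpr1 had 4, 1 and 2 reads, which summed to 0.0320 ppm with an exact 95% Poisson interval from 0.0129 to 0.0659 ppm, for counting error only. Its lowest sorted library was at 1.00 ppm.

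Alox5 was lower in culture by much less than its partner Alox5ap. It had 416, 390 and 328 reads, or 6.27, 5.16 and 4.27 ppm, against 19.0 to 43.4 ppm in sorted cells, whose mean was 5.96-fold higher. In the cultures there were 0.0409, 0.0564 and 0.131 reads of Alox5ap per read of Alox5, where the lowest sorted library had 5.85.

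Alox15 was at 0.814, 0.793 and 1.30 ppm in culture, inside the sorted range of 0.0933 to 2.23 ppm. Ephx2 was at 34.7, 30.2 and 22.5 ppm, so that culture replicates 1 and 2 lay above the sorted range of 7.73 to 29.3 ppm and replicate 3 inside it. With these levels the order per exon length in culture was Pla2g4a (215 ± 4.82 ppm per kb), Lta4h (61.5 ± 7.68), Ephx2 (11.7 ± 2.49) and Alox5 (1.86 ± 0.355), each apart from the next (SD, n = 3). Ltc4s (0.566 ± 0.248), Alox15 (0.403 ± 0.120) and Alox5ap (0.274 ± 0.124) formed an overlapping set below them, and Fpr1 was last.

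Microglia and macrophage genes were lower in culture too. Their list mean was 336-fold lower, and the 12 genes ran from 23.4-fold lower for Tmem119 to 20546-fold lower for P2ry12. The median of these 12, 1123-fold, was above the fold of each of the 4 lower members. The members were also set against the summed reads of that list in the same library, a ratio chosen after the values were seen. Ltc4s had 3.18 to 5.03 reads per 1000 list reads in sham, 2.96 to 7.59 in OHT and 1.75 to 3.43 in culture. Alox5ap had 6.35 to 8.64 in sham, 5.76 to 6.70 in OHT and 2.41 to 3.46 in culture. Alox5 had 26.4 to 59.5 in culture, against 0.875 to 1.13 in sham and 0.346 to 0.653 in OHT, though in ppm it was 5.96-fold lower in culture. Because the list was 336-fold lower there, a gene that is lower by less must have a higher ratio. Likewise a gene that is lower by more, such as Alox5ap and Ltc4s, must have a lower mean ratio. The ratio therefore adds nothing to the ppm for Alox5, Alox5ap or Ltc4s. The list's own share of reads was higher in the OHT mean, which lowers any gene's ratio there, so that the ratios are not compared between OHT and sham. The part of myeloid cells in the culture levels was not tested.

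**Figure D4:**
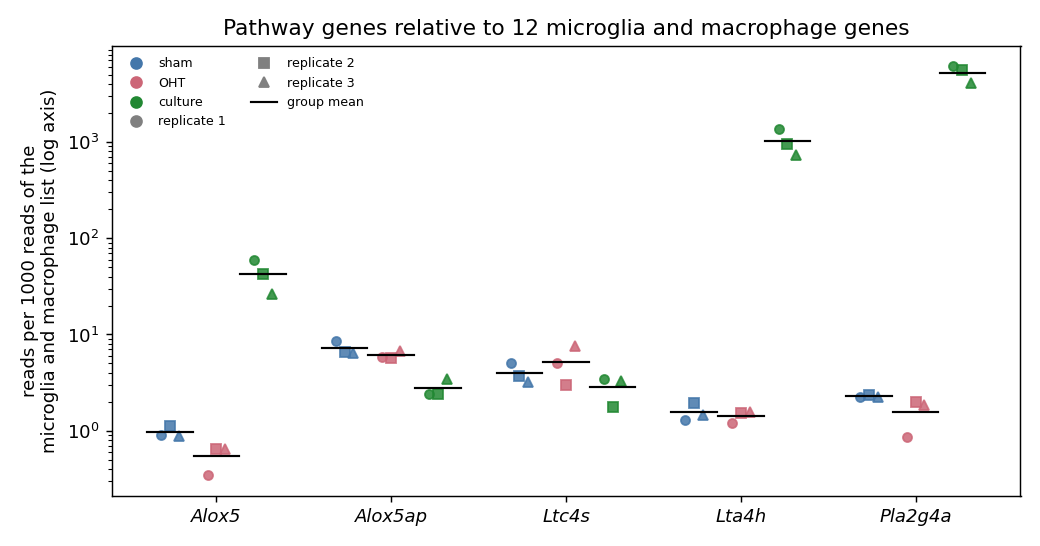
Reads of 5 pathway genes per 1000 summed reads of 12 microglia and macrophage genes in the same library (log axis), for sham (blue), OHT (red) and culture (green), with symbols for replicates and bars for means. Alox5ap is at 2.41 to 3.46 in culture and at 5.76 to 8.64 in the sorted libraries, without overlap. Ltc4s is at 1.75 to 3.43 in culture and at 2.96 to 7.59 in the sorted libraries, with overlap. Alox5, Lta4h and Pla2g4a are far higher in culture. The list itself is 336-fold lower in the culture mean, which raises any ratio there.

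The rest of the pathway was read from a list of 59 other symbols, of which 41 were in the sorted table and 34 passed the filter. limma called 0 of 34 (smallest adjusted p 0.332), edgeR called 0 and DESeq2 called 1. At an unadjusted p under 0.05 there were 4 of 34 higher, where 5.37% of all genes tested were higher, and 2 of 34 lower, where 6.3% were lower. The 4 were Cyp4f18, Ptgr1, Pla2g7 and Dpep2, and the 2 were Pla2g5 and Cyp4f14. The median log2 difference of the list was 0.27, against -0.12 over all genes tested. Groups did not overlap for 2 of 34 higher in OHT and 3 of 34 lower, beside 9.26% and 9.18% of all genes. Both higher ones were listed under turnover of leukotrienes, lipoxins and epoxides, and so were Cyp4f14 and Ptgr2 among the lower ones, so the role has no single direction. For Cyp4f18, which oxidises leukotriene B4, the mean of 3 libraries was 5339 ± 3524 (SD) in sham and 12998 ± 1889 in OHT, a log2 difference of 1.47 (SE 0.43, limma adjusted p 0.332). Ptgr1, a reductase that inactivates leukotriene B4, averaged 430 ± 34.3 and 1264 ± 591 (1.45, SE 0.50, limma adjusted p 0.343). The microglia and macrophage list was higher in the OHT mean too (3.72% and 4.96% of reads), and its part in these values was not tested.

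Of the lower genes without overlap, Pla2g5, a secreted phospholipase A2, averaged 2359 ± 1330 in sham and 534 ± 265 in OHT, which gave -2.08 on the log2 scale (SE 0.61, limma adjusted p 0.332). It was the gene that DESeq2 called (adjusted p 0.0262). Cyp4f14, another leukotriene B4 hydroxylase, was at 301 ± 64.6 and 67.6 ± 57.4 (-2.45, limma adjusted p 0.362), and Ptgr2, a prostaglandin reductase, at 2016 ± 381 and 1528 ± 122 (-0.39, limma adjusted p 0.660).

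By role, the highest other genes in sorted cells were these. Pla2g15, a lysosomal phospholipase, was at 10138 ± 2346 in sham and 10925 ± 1481 in OHT, and Pla2g7, which degrades platelet-activating factor, at 3673 ± 3280 and 8498 ± 4059. Cotl1, a binding partner of 5-lipoxygenase, was at 7817 ± 2098 and 8581 ± 5557, with a log2 difference of -0.09 despite the higher OHT mean. Dpep2, a peptidase of the step from leukotriene D4 to E4, was at 273 ± 328 and 1150 ± 1049, and Abcc1, the leukotriene C4 exporter, at 527 ± 174 and 829 ± 705. Hpgd, which inactivates lipoxins and prostaglandins, was at 5326 ± 1963 and 7122 ± 2983. The limma adjusted p of these 6 genes lay between 0.382 and 0.946.

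Among receptors, Cysltr1, the receptor of leukotriene D4, was at 1852 ± 595 in sham and 2632 ± 718 in OHT (limma adjusted p 0.593), and Cysltr2 at 40.4 ± 44.5 and 18.4 ± 9.62 (0.949), with a log2 difference of 0.30 despite the lower OHT mean. Gpr37, an orphan receptor for which a lipid ligand has been described, was at 7146 ± 3006 and 4584 ± 707 (limma adjusted p 0.552), and Cmklr1, which binds chemerin and resolvin E1, at 491 ± 130 and 604 ± 95.1 (0.795). Anxa1, the protein ligand of the formyl peptide receptors, was at 2674 ± 1044 and 4527 ± 3412 (limma adjusted p 0.630). Of the other lipoxygenases, Aloxe3 was at 136 ± 153 and 114 ± 74.0 (limma adjusted p 0.999), while Alox12 was at 7.22 ± 6.46 and 0.921 ± 1.60 and failed the filter.

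Some of these genes differed between sorted cells and cultures, and they are given as examples, with no count over the list. Hpgd was at 134 ppm in sham, 142 ppm in OHT and 0.373 ppm in culture, Cyp4f18 at 130, 272 and 0.0660 ppm, and Cysltr1 at 46.3, 57.5 and 0.327 ppm. In contrast, Anxa1 was at 66.1, 84.7 and 1286 ppm, and Abcc1 at 13.1, 15.5 and 122 ppm. Others differed little, with Cotl1 at 194, 177 and 208 ppm and Aloxe3 at 3.43, 2.72 and 2.40 ppm. The cultures thus held Anxa1 transcripts at high level and 7 reads of Fpr1 in all. Fpr2, which also binds annexin A1, is not listed there, so its level in culture is unknown.

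Among the genes whose levels were most like those of Alox5 over the 6 sorted libraries were Slc2a5, the fructose transporter (Pearson r 0.98 on log2 values), and Soga1 (0.97). For Alox5ap they were Ube2q1 (0.99), Polr2h (0.99) and Chst11 (0.99). These were among the highest of 11532 genes over only 6 libraries, which share the spread between replicates, and they are given as a description.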

How the data were processed

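RNA from sorted cells (3 sham and 3 OHT libraries) and 3 cultures went through a SMARTer v4 amplification kit and paired-end sequencing of 150 bp, per the labels' protocols. Per the submitters' processing notes, the authors used bcl2fastq 2.20, Trim Galore 0.6.6, FastQC 0.11.9 and STAR 2.7.1a with build mm39. The counter, strand setting, annotation and normalization tool were not given in the sources used here. Overlapping genes may therefore share reads. The deposited signal is 1 normalised count per gene and library, in 2 separately normalised tables. Divided by the column's smallest step, 100% of values in all 9 libraries came out as whole reads (tolerance 0.05 reads). The step of culture replicate 3 is too close to 1 to be an independent check. No replicates agreed within sampling noise (chi-square per gene 46.3 to 757). Exon lengths came from GENCODE M21 (GRCm38). At these depths 1 read is worth 0.0130 to 0.0264 ppm.

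OHT and sham libraries alone were fitted with limma 3.58.1 (R 4.3.3, eBayes with trend) on log2(value + 1) for genes with a mean of at least 10. Fold changes on this scale understate those of low genes. Alternatives used edgeR 4.0.16 and DESeq2 1.42.0 on recovered reads, other pseudocounts, filters and scalings, limma without trend, marker lists as covariates, the replicate block and each library left out. The script was tested on simulated data with changes larger than the differences reported here. That test does not measure the power to call smaller differences. The members, lists and rules were chosen with earlier results of these data known. Named genes were all 9 members, genes of the wider list past the threshold, up to 3 per direction without overlap by smallest p (mean of at least 100), the 2 highest per role, and the 3 genes most like Alox5 and Alox5ap, of which 1 is not reported here. Python 3.11.15, numpy 2.4.6, pandas 2.3.3 and matplotlib 3.10.9 were used.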

Additional observations from a re-analysis of the deposited data

How the results depend on the processing

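No member passed the adjusted threshold under any of the 18 alternatives to the OHT and sham comparison, 6 of which left out 1 library each (range 0 to 0). The count at an unadjusted p under 0.05 was 1 of 9 with a pseudocount of 10, without a filter on low values, with the replicate block, and with DESeq2. The gene was Ltc4s each time. Over all genes the calls in these settings were 1734 of 14403, 1776 of 16367, 1809 of 14403 and 2028 of 14403, in that order. With the rod list as a covariate the count was also 1, for Fpr1, beside 486 of 14403 genes. Leaving out 1 library gave counts of 0 to 1, again Ltc4s, without sham replicate 1 or OHT replicate 2. Those 2 fits called 1562 and 2500 of 14403 genes. The wider list had 1 call with DESeq2, and 0 to 0 when 1 library was left out. With the replicate block the unadjusted p of Ltc4s was 0.0170 (limma adjusted p 0.289). The block moved the calls over all genes at an unadjusted p under 0.05 from 1680 to 1809. Same-numbered libraries did not deviate together (r of 0.078, -0.025 and -0.045, across genes), and of the sham libraries only replicate 1 correlated best with its own number.

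The sign of some estimates turned. Pla2g4a was at -0.0089 with TMM factors, -0.011 with edgeR, -0.20 after quantile normalization, -0.34 with the rod covariate and -0.083 with the microglia and macrophage covariate, and at -0.057 to 0.23 leaving out 1 library. Alox5ap was at -0.25 and -0.22 with these covariates. Alox15 was at 0.54 after quantile normalization, 0.20 with edgeR and 0.24 with DESeq2, and at -1.87 to 0.16 leaving out 1 library. Ephx2 was at 0.56 with the rod covariate and at -0.84 to 0.23 leaving out 1 library. Fpr1 was at -0.27 to 1.69 leaving out 1 library. The cause was not tested. Over all genes the median was -0.12 as reported, -0.19 with TMM factors and 0.0097 after quantile normalization. With the microglia and macrophage covariate Alox5 was at -0.36, Alox15 at -0.060, Ephx2 at -0.42 and Fpr2 at -1.51. Alox5, Lta4h, Ltc4s and Fpr2 kept their sign under every alternative run for them. With a mean of at least 100 Alox15 and Fpr2 were not tested.

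In culture the count of members outside the sorted range was 6 with the total without the 20 highest genes and with the median of 12300 genes. It was 6 to 7 leaving out 1 culture, with 7 without culture replicate 3, where Ephx2 moved above the sorted range. The log2 ratio of culture to sorted mean was lower for every listed member under either scaling. For Pla2g4a it went from 3.03 to 2.74 and 2.77, and for Lta4h from 0.97 to 0.67 in both. Depth limited Alox15 and Fpr1, which had 5 reads or fewer in 2 OHT libraries and in the cultures, respectively.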
